A study of Mus musculus with 68 samples.

Results

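Dopamine neurons of the ventral tegmental area (VTA) that carried counts of Slc17a6, the vesicular glutamate transporter VGLUT2, were compared with dopamine neurons that carried none. Among 68 single neurons, 11 had a deposited Slc17a6 count of at least 10 and are called Slc17a6-positive, 54 had a count of 0 and are called Slc17a6-zero, and 3 cells with counts between these limits were left out, so that 65 cells were used. The Slc17a6-positive cells were 4 of 35 WT and 7 of 33 3xTg cells. Each library came from 1 neuron whose contents were drawn into the recording pipette after patch-clamp recording (Patch-seq), in brain slices of 12-month-old mice of both sexes. The 3xTg mice are homozygous for transgenes of mutant human amyloid precursor protein, presenilin 1 and tau, and the WT mice are a separate line without transgenes kept in parallel on the same hybrid background, so genotype and line cannot be told apart. The labels do not tie cells to animals, so each genotype was taken as 1 sample. For that reason, and because the groups were selected on a measured count, no p-value is given, and SDs, ranges and intervals are over cells, with animals unknown.

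Glutamate is loaded into synaptic vesicles by 3 related transporters, of which VGLUT2 is the one typical of subcortical neurons. Some dopamine neurons of the midbrain make VGLUT2 together with tyrosine hydroxylase and release both transmitters, and such neurons are best known from the medial VTA. Midbrain dopamine neurons also differ from one another in markers such as the retinaldehyde dehydrogenase Aldh1a1, the transcription factors Sox6, Otx2 and Neurod6, the calcium-binding protein Calb1 and a set of neuropeptides.

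The Slc17a6 values that chose the cells are given as a description. In CPM, the share of a cell's total count scaled to 1e6, Slc17a6 was 52.9, 185, 761 and 17.5 in WT cells 21, 57, 60 and 64. In 3xTg cells 29, 31, 37, 48, 77, 79 and 91 it was 112, 119, 110, 86.9, 19.5, 31.1 and 16.4 CPM. The positive cells nearest the limit held 18.9 and 20 counts, and the cells left out held 3, 1 and 1 counts, so that few cells lay near it. By genotype the share of Slc17a6-positive cells was 11.4% in WT (exact 95% binomial interval 3.20 to 26.7) and 21.2% in 3xTg (8.98 to 38.9), and these intervals, which cover counting of cells alone, overlap. Cell numbers in the labels fall into runs, and 3 of the 4 WT positive cells came from the run 57 to 74, with 10 Slc17a6-zero cells beside them, against 1 positive and 16 zero cells in the run 1 to 22.

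Slc17a6-positive libraries held more detected genes. A gene was taken as detected in a cell at a count of at least 1. The median was 8320 genes (range 5198 to 10039) in WT positive and 7195 (3770 to 9767) in WT zero cells. In 3xTg it was 9312 (6922 to 10184) against 7648 (3695 to 10426). The ranges overlapped in both genotypes, and within the WT run 57 to 74 the order was turned, with a difference of medians, positive minus zero, of -624.5 genes. Total counts ran from 492505 to 1678624 per cell over all 68 cells, and after thinning each cell to 700448 counts, which left out 7 shallower cells, the medians were still 8100 against 6605 in WT and 8934 against 7331 in 3xTg. A gene found more often in positive cells can therefore move with the number of genes detected. Each difference below is given with a second value, fitted with genes detected per cell as a term, wherever that value ends or adds a call, or turns a direction, for a tested gene whose difference is printed.

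**Figure D1:**
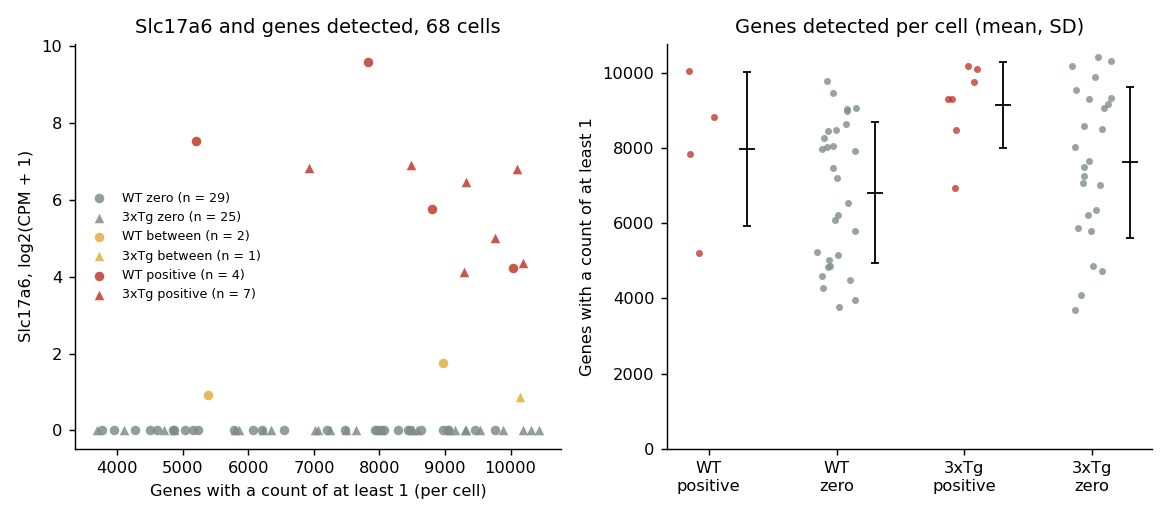
Left, Slc17a6 as log2(CPM + 1) against the number of genes with a count of at least 1, with 1 point per cell for all 68 cells. Right, genes detected per cell in the 4 groups, with the mean and SD over cells beside the points; the Slc17a6-positive cells (red) lie within the range of the Slc17a6-zero cells (grey) except for 1 WT cell above it, and at a higher median.

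The levels of the genes that define dopamine neurons are given for the cells. The study had kept only cells positive for Th, Slc6a3 and Slc18a2, so that their presence was fixed by that choice. Th, the rate-limiting enzyme of dopamine synthesis, had a count in all 68 cells, and over the 65 cells used it ranged from 949 to 16862 CPM. Positive and zero cells hardly differed in Th, with differences of mean log2(CPM + 1) of 0.27 in WT and 0.21 in 3xTg. Slc6a3, the dopamine transporter, differed by 0.58 and 0.35 (0.67 and -0.13 with genes detected as a term), and Slc18a2, the vesicular monoamine transporter, by 0.73 and -0.13. Slc17a7, which encodes VGLUT1, had no count in any of the 11 positive cells and counts in 2 of 54 zero cells. Slc32a1, the vesicular GABA transporter, also had none in positive cells and counts in 5 of 54 zero cells. Slc17a8, the gene of VGLUT3, had at least 10 counts in 8 of 11 positive and 22 of 54 zero cells. Of 17837 genes with a count in any cell, 2824 had counts in zero cells and in no positive cell.

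The sequence upstream of 3 genes on which the comparison turns is shown for orientation, from RefSeq on GRCm38.p6, as the 250 bases before each annotated start, 5′ to 3′ on the gene's strand. The gene spans are those of GENCODE on the same build, whose starts of Slc17a6 and Aldh1a1 lie slightly downstream of the first RefSeq starts used for the windows. Slc17a6 lies at chr7:51622006-51671119 on the plus strand, Aldh1a1 at chr19:20492715-20643465 on the plus strand and Neurod6 at chr6:55677822-55681263 on the minus strand. Slc17a6 is shown at 2 starts, chr7:51621580-51621829 before the gene and chr7:51624387-51624636 inside the gene outside its exons, and Aldh1a1 likewise at 2, chr19:20492333-20492582 before the gene and chr19:20601718-20601967 inside it, with 7 bases in its exons. The Neurod6 window is chr6:55681264-55681513. Capitals mark matches to the E-box CAGATG on either strand, the type bound by NEUROD factors.
Slc17a6, first start: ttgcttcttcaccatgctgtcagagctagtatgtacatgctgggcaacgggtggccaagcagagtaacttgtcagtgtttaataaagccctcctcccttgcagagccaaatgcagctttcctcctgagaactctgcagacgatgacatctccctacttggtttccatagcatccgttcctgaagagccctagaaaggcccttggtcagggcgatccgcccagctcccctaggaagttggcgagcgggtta
Slc17a6, second start: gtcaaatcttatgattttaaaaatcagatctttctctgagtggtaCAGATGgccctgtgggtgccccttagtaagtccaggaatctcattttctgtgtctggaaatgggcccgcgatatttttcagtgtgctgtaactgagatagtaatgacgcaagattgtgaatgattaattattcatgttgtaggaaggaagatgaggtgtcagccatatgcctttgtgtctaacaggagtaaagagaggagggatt
Aldh1a1, first start: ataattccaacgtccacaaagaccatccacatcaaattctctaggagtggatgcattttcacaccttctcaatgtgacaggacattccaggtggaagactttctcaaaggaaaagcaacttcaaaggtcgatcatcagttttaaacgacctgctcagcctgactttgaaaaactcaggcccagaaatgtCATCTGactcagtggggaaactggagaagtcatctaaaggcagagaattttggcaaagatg
Aldh1a1, second start: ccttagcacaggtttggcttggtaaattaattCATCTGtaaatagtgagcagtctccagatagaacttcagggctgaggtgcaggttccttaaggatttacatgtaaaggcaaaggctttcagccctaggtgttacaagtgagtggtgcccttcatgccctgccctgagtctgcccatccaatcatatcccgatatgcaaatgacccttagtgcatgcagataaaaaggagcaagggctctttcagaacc
Neurod6: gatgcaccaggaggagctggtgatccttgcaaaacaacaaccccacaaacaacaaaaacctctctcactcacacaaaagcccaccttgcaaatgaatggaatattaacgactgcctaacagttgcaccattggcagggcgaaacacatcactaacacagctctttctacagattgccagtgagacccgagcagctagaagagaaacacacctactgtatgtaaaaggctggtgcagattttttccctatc
The letters CAGATG stood once in the window of the second Slc17a6 start and, on the minus strand, once in each window of Aldh1a1, and they were not in the Neurod6 window. Of all 32851 upstream windows of that length, 14.4% held them. Further motifs were searched on both strands, TAATCC of the OTX2 type, AAGGTCA of the NR4A2 type and TGTTTAC of the FOXA type, which stood in 6.3%, 4.1% and 3.2% of all windows and in none of the windows printed.

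Across the table, 10752 genes had a count in at least 25% of the 68 cells, and Slc17a6 itself was left out. With 11 positive cells, a gene found in them alone could not pass this filter, whereas a gene found in zero cells alone could. A gene was called higher or lower when the means of log2(CPM + 1) of the 2 groups of cells differed by at least 1, which corresponds to 2-fold on that scale. More genes were called higher than lower in both genotypes. In WT 3373 genes (31.4%) were higher and 950 (8.84%) lower in Slc17a6-positive cells, and in 3xTg 3095 (28.8%) were higher and 346 (3.22%) lower. The median difference over all tested genes was 0.36 in WT and 0.52 in 3xTg, and with genes detected as a term it was -0.11 and -0.01, so that the surplus of higher calls goes with the number of genes detected. In both genotypes 1264 genes (11.8%) were called higher and 50 (0.465%) lower, and with genes detected as a term these counts were 336 and 340.

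The calls of the 2 genotypes, which share no cells, were shared more often than the background by a modest margin. Of the higher calls of WT 37.5% were also called in 3xTg, where 28.8% of all genes were, and of the higher calls of 3xTg 40.8% were called in WT, where 31.4% of all genes were. For lower calls the shares were 5.26% against 3.22% and 14.5% against 8.84%. Most single calls were therefore not shared, and the genes described below were taken from those whose differences had 1 sign in both genotypes by 4 measures, namely the difference of means, the share of cells with a count, the ratio of summed CPM and the value with genes detected as a term. For summed CPM, the counts of a group's cells were added and then scaled to CPM, so cells with more counts weighed more. Ranked by whichever genotype showed the smaller difference, the top 12 genes in each direction were named. A direction shared by both genotypes is part of that rule and is no support for them.

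**Figure D2:**
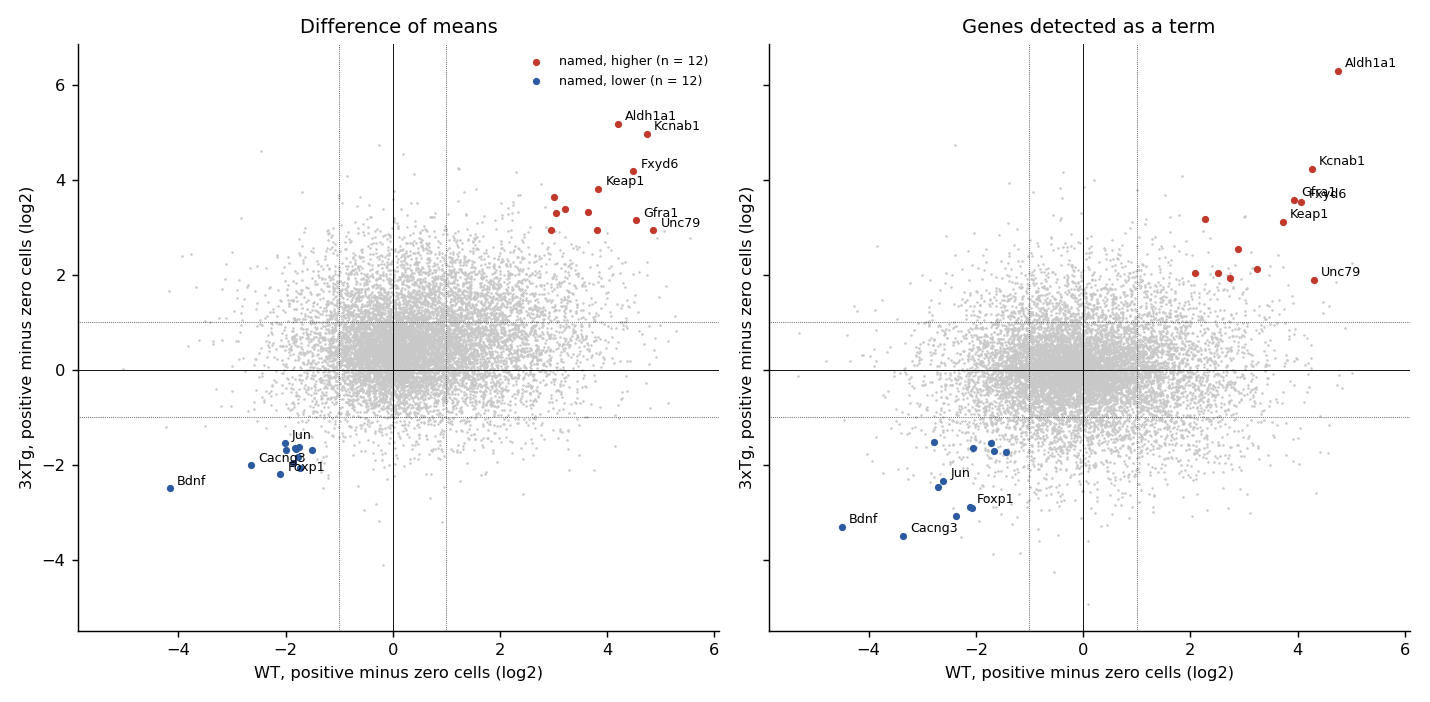
Difference of mean log2(CPM + 1), Slc17a6-positive minus Slc17a6-zero cells, in WT (x axis) and 3xTg (y axis), with 1 point for each of 10752 tested genes, the 24 named genes in colour and dotted lines at -1 and 1. The cloud of all genes lies above 0 in the left panel (medians 0.36 and 0.52) and is centred near 0 in the right panel, where genes detected is a term, and the named genes have 1 sign in both, which the rule that named them requires.

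Aldh1a1, which oxidises retinaldehyde and dopamine-derived aldehydes and marks ventral-tier dopamine neurons, was present in every Slc17a6-positive cell. Its level was 831, 580, 8612 and 3038 CPM in the WT positive cells 21, 57, 60 and 64. In the 3xTg positive cells it was 1969, 2113, 8130, 4495, 2364, 1848 and 17.7 CPM, the last in cell 91. In zero cells it ranged from 0 to 3743 CPM in WT (median 311) and from 0 to 4508 in 3xTg (median 5.79), so that the groups overlapped, but all 11 positive cells lay above the median of the zero cells of their genotype. The difference was 4.20 in WT and 5.17 in 3xTg, and 4.75 and 6.29 with genes detected as a term. Without 3xTg cell 91 the 3xTg value was 6.22.

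At least 10 counts of it were found in 11 of 11 positive cells (100%, exact 95% interval 71.5 to 100) and 32 of 54 zero cells (59.3%, 45.03 to 72.4). In thinned cells a count was found in 100% of positive cells of both genotypes and in 70.8% of WT and 52.2% of 3xTg zero cells, beside 72.4% and 60% before thinning. Among cells with at least 10 counts of Aldh1a1, a restriction added after the values were seen, the difference in its level was 1.27 in WT and -0.12 in 3xTg. These values rested on single cells, being 0.54 in WT without WT cell 60 and 0.92 in 3xTg without 3xTg cell 91. Turned around, 11 of the 45 cells with 10 counts of Aldh1a1 (24.4%) were Slc17a6-positive.

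The other ventral-tier markers gave a mixed picture. Of 9 tested markers of this list, Aldh1a1, its close relative Aldh1a7, Anxa1 and Drd2 were called higher in both genotypes, as were 11.8% of all tested genes. The median difference of the list was 0.84 in WT and 1.19 in 3xTg, beside 0.36 and 0.52 for all tested genes, and 0.90 and 0.23 with genes detected as a term. Igf1, insulin-like growth factor 1, was called lower in 3xTg at -2.19 (-1.73 with the term) and differed by 0.63 in WT. Aldh1a7 differed by 2.96 and 2.91, and since it is a near copy of Aldh1a1, reads could have been split between them. Anxa1, a calcium-dependent membrane-binding protein, was at 921, 0, 1027 and 987 CPM in the WT positive cells and at 369, 0, 1705, 1745, 142, 0 and 0 in the 3xTg ones. It was thus present in some positive cells and absent in others, and its 3xTg difference of 1.76 dropped to 0.85 without 3xTg cell 48 alone. Drd2, the dopamine autoreceptor, had a count in 9 of 11 positive and 23 of 54 zero cells, but its WT difference of 1.68 was 0.52 without WT cell 57. Sox6, a transcription factor that marks dopamine neurons of the substantia nigra and lateral VTA, had no count in any positive cell. In zero cells at least 10 counts of Sox6 were found in 11 of 54 (20.4%, 10.6 to 33.5), while 0 of 11 allows a share of up to 27.3%, so a difference was not detectable at this number of cells.

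Of the 6 tested markers of medial VTA neurons, Neurod6, Grp and Lpl were called higher in both genotypes, where 11.8% of all tested genes were. The medians of the list were 1.31 and 1.18, beside 0.36 and 0.52 for all tested genes, and 1.22 and 0.88 with genes detected as a term. Calb2, calretinin, was called lower in WT at -5.03, with a count in 1 of 4 positive and 25 of 29 zero cells, and differed by 0.01 in 3xTg (-0.12 with the term). Neurod6, a transcription factor of the basic helix-loop-helix class, was at 164, 298, 311 and 37.7 CPM in the WT positive cells. In the 3xTg ones it was 0, 45.6, 166, 111, 77.9, 4.82 and 0 CPM. In WT no zero cell exceeded the highest positive cell, and 23 of 29 zero cells lay below the lowest, whereas in 3xTg cells 29 and 91 held none. The differences were 5.55 and 2.77, and 5.02 and 2.25 with genes detected as a term. At least 10 counts were found in 8 of 11 positive (72.7%, 39.03 to 93.98) and 13 of 54 zero cells (24.1%, 13.5 to 37.6).

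Grp, which encodes gastrin-releasing peptide, was at 185, 0, 190 and 154 CPM in the WT and at 220, 243, 293, 488, 315, 0 and 66.8 CPM in the 3xTg positive cells. Its differences were 2.02 and 2.71, with WT 3.88 without cell 57. As the log2 ratio of summed CPM they were 0.09 and 0.88, which ended the call in both genotypes, and 6 WT and 2 3xTg zero cells exceeded every positive cell of their genotype. Lpl, lipoprotein lipase, was found in all cells and differed by level, at 927, 386, 226 and 812 CPM in WT positive cells against a median of 84.5 in WT zero cells. In 3xTg it was 500, 242, 599, 718, 464, 191 and 20.1 CPM against a median of 38.7. Calb1, calbindin, differed by 0.61 in WT and -0.75 in 3xTg, and Cck, cholecystokinin, by -0.38 and -0.81. Calb1 was at 818, 835, 1138 and 123 CPM in the WT positive cells, so its WT value was pulled down by WT cell 64. Cck was at 0 in WT cell 60 and in 3xTg cells 31 and 48. In the other positive cells it was at 106 to 530 CPM in WT and 68.8 to 717 CPM in 3xTg, so both differences of Cck rested on the cells without it. Otx2, which marks ventromedial VTA neurons and was too rare to be among the genes tested, had at least 10 counts in 3 of 11 positive and 7 of 54 zero cells. It differed by -0.24 in WT and by 2.11 in 3xTg, where 4 of 7 positive and 4 of 25 zero cells had a count.

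Markers of both kinds met in the same cells. Aldh1a1 and Neurod6 together, each with at least 10 counts, were found in 8 of 11 positive (72.7%, 39.03 to 93.98) and 11 of 54 zero cells (20.4%, 10.6 to 33.5) when both genotypes were pooled. In WT these were 4 of 4 (39.8 to 100) and 6 of 29 (7.99 to 39.7), and in 3xTg 4 of 7 (18.4 to 90.1) and 5 of 25 (6.83 to 40.7), where the intervals overlap. Aldh1a1, Neurod6 and Grp together were found in 7 of 11 (63.6%, 30.8 to 89.1) and 10 of 54 (18.5%, 9.26 to 31.4). All 11 positive cells held at least 10 counts of Aldh1a1, so these shares had to equal those of Neurod6 alone and of Neurod6 with Grp there. In zero cells Neurod6 alone was found in 13 of 54, and Neurod6 with Grp in 10 of 54. The combinations with Aldh1a1 were chosen after the values were seen. Of the 20 cells with both Aldh1a1 and Neurod6, 8 were Slc17a6-positive (40%).

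**Figure D3:**
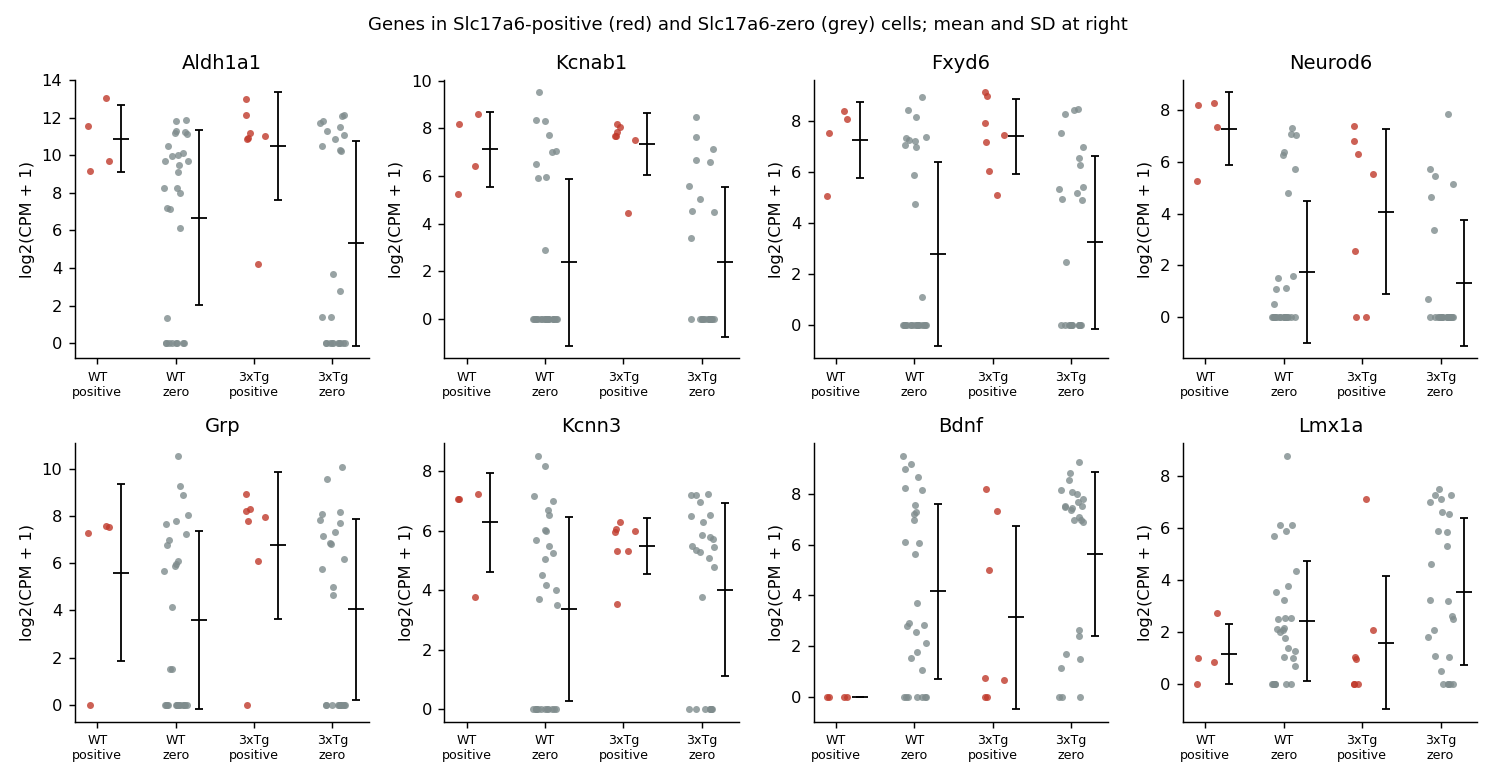
Levels of 8 genes as log2(CPM + 1) in Slc17a6-positive (red) and Slc17a6-zero (grey) cells of WT and 3xTg, with 1 point per cell and the mean and SD over cells at the right of each group. Aldh1a1, Kcnab1 and Fxyd6 were above 0 in all 11 positive cells and at 0 in many zero cells, while Bdnf was at 0 in the 4 WT positive cells.

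A pair of neuropeptide genes too rare to be among the tested genes stood apart, and they were picked out after their values were seen. Penk, which encodes the precursor of the enkephalin opioid peptides, held 64.9 CPM in WT cell 64 and 243, 13.8, 64.3 and 31.4 CPM in 3xTg cells 29, 37, 48 and 91. It had no count in the other positive cells, none in the 3 cells left out and none in any of the 54 zero cells. The share with at least 10 counts was therefore 5 of 11 (45.5%, 16.7 to 76.6) against 0 of 54, which allows a share of up to 5.56%. Over the whole table, Penk was the one gene other than Slc17a6 with at least 10 counts in 5 or more positive cells and no count in any zero cell. At 4 or more positive cells it was joined by Clec1a and Shisa2, among 8507 genes with at least 10 counts in that many positive cells.

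Adcyap1, which encodes the peptide PACAP, was at 41.4, 48.5, 67.1 and 0 CPM in the WT positive cells. In 3xTg it was 188, 0, 101, 29.7, 0, 17.1 and 0 CPM. At least 10 counts were found in 7 of 11 positive (63.6%, 30.8 to 89.1) and 5 of 54 zero cells (9.26%, 3.08 to 20.3), and the difference was 3.53 in WT and 2.92 in 3xTg. Of the 6 tested neuropeptide genes, Grp and Chga were called higher in both genotypes, beside 11.8% of all tested genes. Chga, chromogranin A of dense-core vesicles, differed by 1.13 and 2.82, and the WT value was 0.33 without WT cell 21 and 0.16 with genes detected as a term. By summed CPM its values were 0.05 and 0.77. Nts, Vip and Gal had no count in any of the 65 cells.

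The 12 named higher genes were Kcnab1, Aldh1a1, Fxyd6, Keap1, Atp1b2, Armcx2, Gfra1, Egfl7, Camkv, Naa15, Unc79 and Arf2. Several act at the membrane. Kcnab1, an accessory beta subunit of voltage-gated potassium channels, was at 391, 291, 84.5 and 37.1 CPM in the WT positive cells. In the 3xTg ones it was 228, 182, 204, 205, 266, 289 and 20.96 CPM. It was thus present in all 11, against 10 of 29 WT and 10 of 25 3xTg zero cells, and 1 zero cell in each genotype exceeded every positive cell. The differences were 4.73 and 4.96, and 4.26 and 4.23 with genes detected as a term.

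Fxyd6, a regulator of the sodium-potassium pump, was at 268, 186, 335 and 32.5 CPM in WT and at 508, 176, 245, 563, 65.4, 144 and 33.3 CPM in 3xTg positive cells, and its differences were 4.49 and 4.18. It too was present in all 11 positive cells, with a median of 0 in WT and 4.50 CPM in 3xTg zero cells. Atp1b2, the beta 2 subunit of the same pump, differed by 3.64 and 3.33 but had no count in WT cell 21 and 3xTg cells 77 and 91. Unc79, a subunit of the sodium leak channel complex of Nalcn, was at 175, 263, 198 and 14.04 CPM in WT positive cells and from 0 to 120 CPM in 3xTg positive cells, with differences of 4.86 and 2.93. Gfra1, the co-receptor for the growth factor GDNF, differed by 4.53 and 3.15 and was nearly absent in WT cell 57 and 3xTg cell 79, at 4.04 and 1.07 CPM.

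The remaining named higher genes have roles away from the channel and pump. Keap1, which keeps the oxidative stress factor NRF2 low, was present in 10 of 11 positive cells and differed by 3.84 and 3.80. Camkv, a kinase-like protein of synapses, differed by 3.00 and 3.63, and Naa15, a subunit of an amino-terminal acetyltransferase, by 3.80 and 2.95. Arf2, a small GTPase of vesicle traffic, was at 118, 0, 47.8 and 76.3 CPM in WT and from 63.5 to 142 CPM in 3xTg positive cells, and its differences were 2.95 and 2.93, which by summed CPM were 0.76 and 0.29 and no longer called. Zero cells reached higher in Arf2, to 193 CPM in WT and 396 in 3xTg. Armcx2 and Egfl7 differed by 3.22 and 3.38 and by 3.04 and 3.29. With 4 WT positive cells, leaving out 1 of them moved the WT value of Atp1b2 (WT cell 21, 5.79), Armcx2 (WT cell 57, 2.04, or WT cell 60, 4.95), Egfl7 (WT cell 21, 4.64), Camkv (WT cell 64, 4.58) and Arf2 (WT cell 57, 4.51) by more than 1.5 times.

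The 12 named lower genes were Bdnf, Foxp1, Cacng3, Cacna2d3, Nubp2, Rnf115, Ifi27l1, C1qa, Parp8, Fam46a, Jun and Usp13. Bdnf, the neurotrophin that supports dopamine neurons, had no count in the 4 WT positive cells, whereas 22 of 29 WT zero cells held counts, up to 717 CPM. In the 3xTg positive cells it was 0, 0.600, 0, 0.706, 31.01, 291 and 158 CPM, against a median of 162 and a highest value of 598 CPM in 3xTg zero cells. It was thus low in 4 of the 7 3xTg positive cells, those numbered 29 to 48, and at 31.01 to 291 CPM in the 3 numbered 77 to 91. The differences were -4.16 and -2.49, and within the 3xTg run 76 to 92 the value was 0.28.

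Foxp1, a forkhead transcription factor, was at 5.18, 0, 1.60 and 3.51 CPM in the WT positive cells. In the 3xTg ones it was 4.71, 0, 0, 24.3, 0, 6.43 and 0 CPM. A count was found in 6 of 11 positive cells, against 28 of 29 WT and 22 of 25 3xTg zero cells, and the differences were -2.09 and -2.20. Lmx1a, a transcription factor that specifies midbrain dopamine neurons and was not named by the rule, was at or below 5.75 CPM in 10 of 11 positive cells and at 137 CPM in 3xTg cell 91. Zero cells of Lmx1a ranged from 0 to 438 CPM, and its differences were -1.29, which is -0.90 without WT cell 64, and -1.96. Lmx1a was the one gene called lower in both genotypes among 9 tested transcription factors of dopamine neurons, of which Neurod6 was called higher, beside 0.465% of all tested genes called lower and 11.8% called higher in both. Nr4a2, a further member needed for dopamine identity, differed by 0.87 and 1.08, and by 0.69 and 0.26 with genes detected as a term, and its 3xTg value by summed CPM was 0.08. Without 3xTg cell 26 its 3xTg value was 0.79. Its WT value was pulled down by WT cell 21, at 20.1 CPM beside 219 to 707 CPM in the other WT positive cells.

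Some of the lower genes belong to calcium channel or receptor complexes. Cacng3, an auxiliary subunit of AMPA receptors, had counts in 3 of 11 positive cells and differed by -2.64 and -2.01. Cacna2d3, an alpha-2-delta subunit of calcium channels, had counts in 1 of 11, 3xTg cell 91 at 96.6 CPM, and differed by -1.85 and -1.96. Jun, an immediate early transcription factor, differed by -2.01 and -1.54. It was at 0, 0, 43.9 and 56.1 CPM in WT and at 705, 0, 30.1, 83.3, 0, 89.97 and 221 CPM in 3xTg positive cells, and without 3xTg cell 31 its 3xTg value was -0.70, with WT -1.07 without WT cell 21. It was the one of 6 tested immediate early genes called in both genotypes, beside 0.465% of all tested genes called lower in both, and Fos differed by -0.17 and 0.30. Nubp2 lost its call in WT without WT cell 21, at -0.68, and Usp13 without WT cell 57, at -0.98, while Rnf115 was -3.02 in WT without WT cell 21. Of the other lower genes, Ifi27l1 had counts in 1, Parp8 in 2 and Fam46a in 1 of the 11 positive cells.

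The higher genes were nearer to the limit when counts were added over the cells of a group and scaled to CPM before the ratio was taken. As that log2 ratio, Kcnab1 was 1.22 in WT and 2.21 in 3xTg, Aldh1a1 2.08 and 1.40 and Fxyd6 1.29 and 1.87. Neurod6 was 3.16 and 1.99, Keap1 3.44 and 1.68 and Anxa1 1.58 and 1.42. Of the 24 named genes, Arf2 and, in WT, Nubp2 at -0.59 fell short of 1 in size by this measure.

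Since every Slc17a6-positive cell held Aldh1a1, the comparison was repeated against the 20 WT and 12 3xTg zero cells with at least 10 counts of it, a choice made after the values were seen. Kcnab1 then differed by 3.98 and 4.37, Fxyd6 by 4.42 and 3.08 and Neurod6 by 5.16 and 1.62. Lpl differed by 2.24 and 1.7 and Foxp1 by -1.85 and -1.47. These genes thus kept a difference of at least 1 beside zero cells that also held Aldh1a1. Grp differed by 1.68 and 0.36, Bdnf by -3.47 and -0.49 and Lmx1a by -0.97 and -0.42, and these were not called in both genotypes. In 3xTg, Grp was 1.48 and Bdnf -1.33 without 3xTg cell 79, and Lmx1a was -1.34 without 3xTg cell 91, while Lmx1a in WT was -1.50 without WT cell 21, so that these values too moved with 1 cell.

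The runs of cell numbers, which the labels do not explain, were also taken apart, with 1 WT and 4 3xTg positive cells in the first runs (WT 1 to 22 and 3xTg 24 to 55) and 3 and 3 in the second (WT 57 to 74 and 3xTg 76 to 92). WT cells numbered 94 to 96 were in neither. Aldh1a1 differed by 3.10 in WT and 6.27 in 3xTg in the first runs and by 3.60 and 3.87 in the second. Kcnab1 differed by 6.22 and 5.28 and then by 3.54 and 4.55, and Fxyd6 by 5.86 and 5.53 and then by 3.43 and 2.07. These 3 genes were higher in positive cells in each run, but of the other named higher genes Keap1, Atp1b2 and Egfl7 were not. In the first WT run, with its 1 positive cell, Keap1 differed by -0.82, Atp1b2 by -1.16 and Egfl7 by -1.74, and in the second 3xTg run Atp1b2 differed by -1.77. Neurod6 differed by 6.37 and 4.23 and then by 3.97 and 0.32, and Lpl by 4.35 and 3.17 and then by 0.39 and 1.25, so that both were under the limit of 1 in 1 genotype of the second runs. Foxp1 differed by -2.15 and -1.63 and then by -1.06 and -3.11. Bdnf differed by -4.37 and -4.83 and then by -4.68 and 0.28, and Lmx1a by 0.83 and -3.01 and then by -2.81 and -0.40, so that neither was lower in all runs by the limit used.

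**Figure D4:**
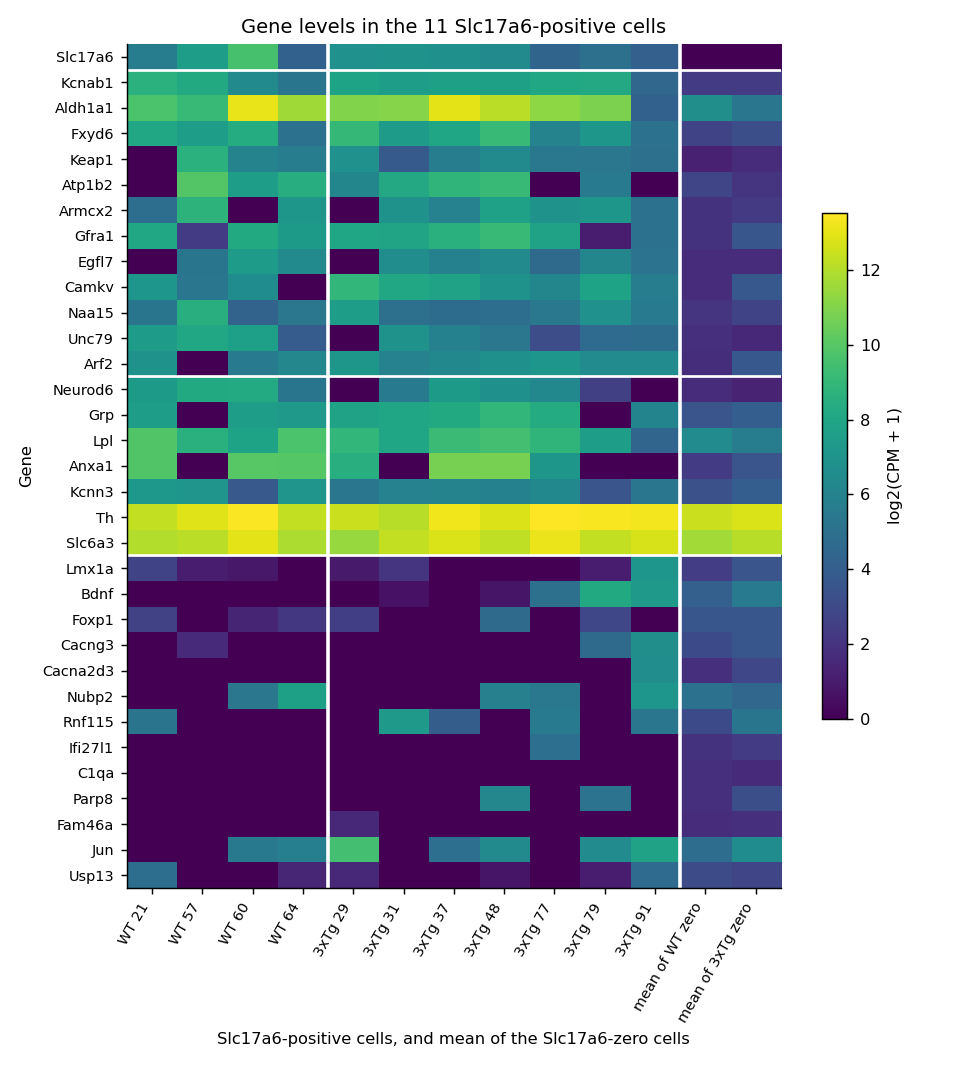
Levels as log2(CPM + 1) of Slc17a6, the 12 named higher genes, 7 further genes, Lmx1a and the 12 named lower genes (rows) in each of the 11 Slc17a6-positive cells (columns), with the mean of the Slc17a6-zero cells of each genotype in the last columns. 3xTg cell 91 has the lowest Aldh1a1 and the highest Lmx1a and Cacna2d3 of the positive cells, and cells 79 and 91 hold Bdnf and Cacng3 above the mean of the 3xTg zero cells.

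The 11 positive cells were not alike. 3xTg cell 91, which had the lowest Slc17a6 at 16.4 CPM, held 17.7 CPM of Aldh1a1, 20.96 of Kcnab1 and none of Neurod6, Anxa1 or Aldh1a7. It also held 137 CPM of Lmx1a, 158 of Bdnf, 102 of Cacng3 and 96.6 of Cacna2d3, and in these genes it lay among the Slc17a6-zero cells. 3xTg cell 77 and WT cell 64, at 19.5 and 17.5 CPM of Slc17a6, nevertheless held 2364 and 3038 CPM of Aldh1a1. Raising the limit to 50 counts of Slc17a6 left 2 WT and 4 3xTg positive cells, and 919 genes were then called higher and 374 lower in both genotypes.

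Genes of the pathways of the 2 transmitters were mostly not called in both genotypes. Of 11 tested genes of glutamate transport and metabolism, 5 were called higher in WT and 3 in 3xTg, where 31.4% and 28.8% of all tested genes were. The medians were 0.99 and 0.33, beside 0.36 and 0.52 for all genes, and 0.10 and -0.26 with genes detected as a term. Got2, the mitochondrial aspartate aminotransferase, was the one called in both, at 3.00 and 2.66, with counts in 11 of 11 positive and 35 of 54 zero cells, and by summed CPM its 3xTg value was 0.74. Of 12 tested genes of dopamine synthesis, transport and breakdown, Qdpr, Drd2 and Maob were called higher in both, where 11.8% of all tested genes were, and none lower in either. The medians were 0.75 and 0.28, and 0.49 and 0.04 with genes detected as a term. With genes detected as a term, Qdpr was at 1.34 and 0.41 and Maob at 0.74 and 1.15, so that neither kept its call in both genotypes.

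Of 28 tested genes of synaptic vesicles, 8 were called higher in WT and 7 in 3xTg, beside 31.4% and 28.8% of all tested genes, with Cplx2, Syn1 and Atp6v0a1 in both and medians of 0.55 and 0.39, and none of these kept its call in 3xTg with genes detected as a term (0.75, 0.28 and -0.10). Of 12 tested glutamate receptor genes 2 were called higher in each genotype and none in both, where 11.8% of all tested genes were called in both. Gad2, glutamate decarboxylase of GABA synthesis, differed by -0.84 and 0.61, and by -1.23 and 0.14 with genes detected as a term. In the WT positive cells it was at 50.2, 4.04, 4.39 and 43.04 CPM, so its WT value depended on which cells were taken. No gene of 5 tested transcription factors of other glutamate neurons was called in either genotype. Of 5 tested nuclear long noncoding RNAs, Miat (1.41 and 1.56) and Rian (1.39 and 1.29) were called higher in both, as were 11.8% of all tested genes, but were at 0.72 and 0.19 and at 0.76 and 0.26 with the term. Of 4 tested sex-linked genes none was called in both.

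Kcnn3, which encodes the SK3 calcium-activated potassium channel that sets the regularity of dopamine neuron firing, was detected in all 11 Slc17a6-positive cells. It was at 150, 132, 12.8 and 132 CPM in WT positive cells. In 3xTg it was 38.6, 62.4, 65.96, 60.7, 78.6, 10.7 and 38.6 CPM. The medians of the zero cells were 14.9 CPM in WT and 39.9 in 3xTg, and 2 WT and 6 3xTg zero cells exceeded every positive cell. The difference was 2.92 in WT and 1.47 in 3xTg, and with genes detected as a term it was 2.32 in WT but -0.11 in 3xTg. By summed CPM it was 0.84 and -0.08. The mean of the single cells' CPM was 50.8 in 3xTg positive and 49.1 in 3xTg zero cells, so the direction in 3xTg changes with the measure. At least 10 counts were found in 11 of 11 positive and 33 of 54 zero cells (61.1%, 46.9 to 74.1).

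Of 18 tested channel genes, Kcnn2, Kcnn3 and Cacna1b were called higher in both genotypes, 3 of 18 beside 11.8% of all tested genes. The medians were 0.97 and 0.73, which were 0.09 and -0.03 with genes detected as a term. Cacna1b, the pore subunit of N-type calcium channels, was at 74.03, 0, 45.98 and 70.99 CPM in WT positive cells, against at most 50.2 CPM in WT zero cells. Its differences were 3.36 and 2.56, and 2.68 and 1.67 with the term. Kcnn2, the gene of SK2, differed by 2.68 and 1.14. The WT value was 1.54 without WT cell 21 and 4.06 without WT cell 57, and the 3xTg value was 0.34 without 3xTg cell 29. Hcn4, a pacemaker channel gene outside the tested set, had a count in 4 of 11 positive and 0 of 54 zero cells, with at least 10 counts in 2. Over the whole table, 408 genes other than Slc17a6 had a count in positive cells and in no zero cell.

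The study set WT against 3xTg over all cells, so a list of 8 genes, some that it named and others related to them such as further subunits of casein kinase 2, was also compared between genotypes within each group of cells. The genes it named were drawn from the same cells and are no independent evidence. Of the 8, Kcnn3 was called in both genotypes between positive and zero cells, a share like the 11.8% of all tested genes called higher in both. Csnk2a1, the catalytic alpha subunit of casein kinase 2, differed between positive and zero cells by -0.13 in WT and 0.23 in 3xTg. The WT value rested on WT cell 57, where Csnk2a1 was at 1.01 CPM, beside 39.1, 101 and 84.1 CPM in WT positive cells 21, 60 and 64. As 3xTg minus WT it was 1.37 within positive and 1.01 within zero cells, where the median over all tested genes was 0.33 and 0.28, but without WT cell 57 the value within positive cells was 0.09. Nucks1, a nuclear casein kinase substrate, gave 1.20 (0.37 without WT cell 57) and 1.25. The other subunits of casein kinase 2 changed sign between the groups of cells, Csnk2a2 with 0.97 (0.29 without WT cell 57) and -0.32 and Csnk2b with -0.97 and 0.60. Slc25a14, a mitochondrial carrier, gave 1.03 and 2.49, Calb1 0.83 and 2.19, and Nacc2, a transcriptional repressor, -0.10 and -0.90. Within positive cells, Slc25a14 was -0.30 and Nacc2 0.29 without WT cell 57, and Calb1 was 0.11 without WT cell 64. Kcnn3 gave -0.79 (-1.62 without WT cell 60) within positive and 0.66 within zero cells. Neurod6 gave -3.21 and -0.42, and Aldh1a1 -0.40 (0.65 without 3xTg cell 91) and -1.36. The values within positive cells thus depended on single cells, and none of these was tested.

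Markers of other cell types were examined beside these results. Of 3 tested microglia markers, C1qa, a complement gene, had no count in any positive cell and counts in 16 of 54 zero cells, with differences of -1.81 and -1.67. C1qb, of the same complex, differed by -2.96 in WT but was called higher in 3xTg at 1.25, where its value by summed CPM was -1.85, and Cx3cr1, the fractalkine receptor, differed by 0.00 in WT and 0.88 in 3xTg (-0.69 and 0.64 with genes detected as a term). The summed level of 7 microglia markers ranged from 3.03 to 13.3 CPM in WT positive and from 0 to 2869 in WT zero cells, and from 2.62 to 112 in 3xTg positive and 0 to 5215 in 3xTg zero cells. The medians were 8.42 against 50.04 CPM in WT and 43.7 against 26.1 CPM in 3xTg. Tmem119 and Csf1r were at 0 in all positive cells, and the part of microglial RNA in the lower genes was not tested. Over the whole table, 2824 genes had counts in zero cells and in no positive cell. With at least 10 counts in 11 or more zero cells there were 7 such genes, C1qa and Slc1a3 among them. In all, 8747 genes had at least 10 counts in that many zero cells. Of 3 tested oligodendrocyte markers 2 were called higher in 3xTg, where 28.8% of all tested genes were, and none in WT. The summed level of the list was 30.4 to 1090 CPM in WT positive and 7.94 to 2540 CPM in WT zero cells, and 11.3 to 478 CPM in 3xTg positive and 5.66 to 548 CPM in 3xTg zero cells. Astrocyte markers summed to 207 to 1285 CPM in WT positive and 7.31 to 3050 CPM in WT zero cells, and to 229.5 to 707 and 11.6 to 1688 CPM in 3xTg, with medians of 372 against 529 and 468 against 371 CPM. Slc1a3, a glial glutamate transporter, was at 0 in all positive cells, while Slc1a2, a further one, had counts in all 65 cells and differed by 1.20 and 0.53. None of the endothelial markers was among the genes tested. At least 10 counts of Pvalb, Tmem119, P2ry12 or Aldh1l1, which the study used to leave cells out, were found in 8 of the 68 cells, 2 of them 3xTg positive, and without these cells 1116 genes were called higher and 93 lower in both genotypes.

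**Figure D5:**
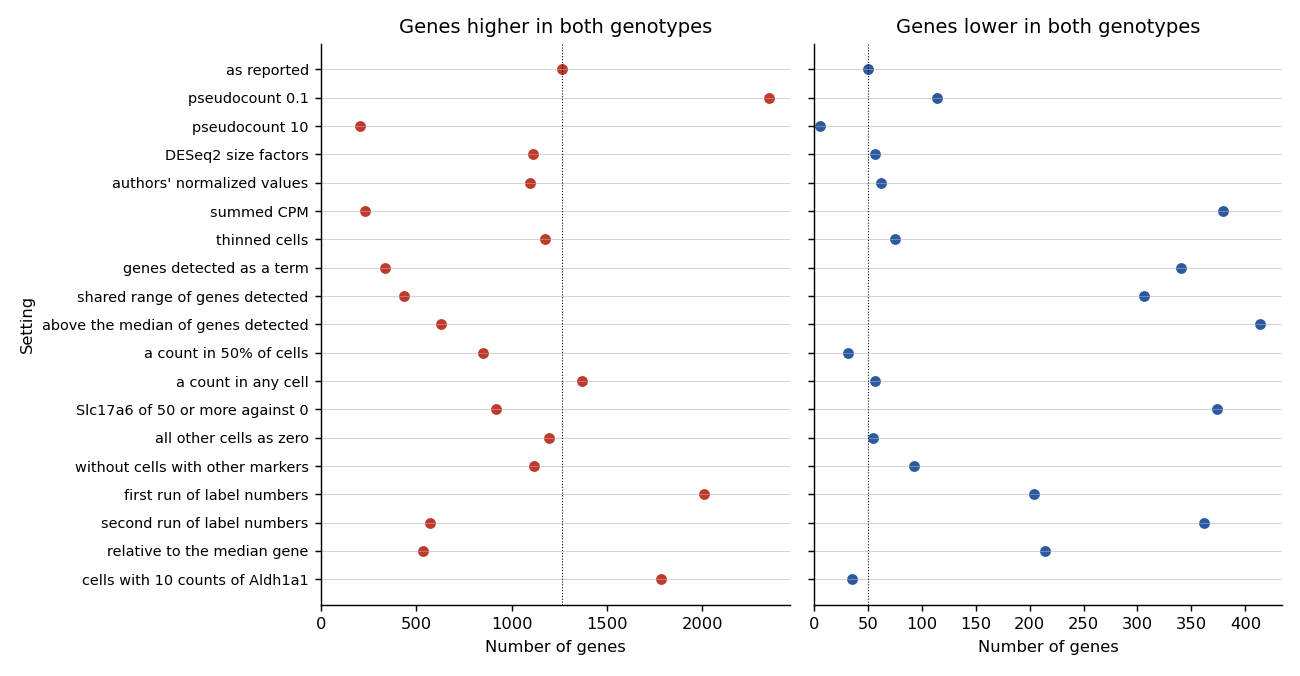
Number of genes called higher (left) and lower (right) in Slc17a6-positive cells in both genotypes under each way of computing the difference, with the reported values of 1264 and 50 as dotted lines. The count of higher genes ranged from 201 to 2354 and that of lower genes from 6 to 414.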

How the data were processed

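Per the study's methods, the authors used Strand NGS 4.0 to trim the reads and to place them on RefSeq transcripts of mm10 at an identity of at least 90%, took out duplicates and deposited estimated counts per gene and cell, of which 55.3% of values above 0 are not whole (tolerance 0.001). The authors also deposited values normalized with DESeq2 on a log2 scale, used here as an alternative alone. No column was mapped to another series. Counts were divided by the cell's total and multiplied to CPM, and the mean of log2(CPM + 1) of Slc17a6-positive cells minus that of Slc17a6-zero cells was taken within each genotype. Low genes are compressed by the pseudocount of 1. Scripts were tested on simulated data. Cells were grouped by the Slc17a6 count and genotype by label.

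The cells and the 19 gene lists (207 genes) were chosen with earlier results of these data known. Named genes were the 12 highest and 12 lowest by the rule given above, and genes outside it were picked after their values were seen. Exact intervals are Clopper-Pearson at 95%, and they and the limits of a count of 0 (3 cells of the total) cover counting of cells alone. Alternatives were other pseudocounts (0.1 and 10), size factors, summed CPM, thinning, genes detected as a term or matched, other filters and Slc17a6 limits, runs of cell numbers and leaving out cells. Counting by strand is not given in the sources used here. Python 3.11.15, numpy 2.4.6, pandas 2.3.3 and scipy 1.17.1 were used.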

Additional observations from a re-analysis of the deposited data

Results flagged for a closer look

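Among 106 sets of values (the 4 WT or the 7 3xTg Slc17a6-positive cells, each gene or measure in turn), 25 had 1 cell far from the others by Dixon's test at the 95% level, and chance flags about 1 in 20 groups, fewer than seen here, though values of 0 beside high values make such gaps common in single cells. All values are log2(CPM + 1).

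3xTg cell 91 stood apart in Kcnab1 (4.46), Aldh1a1 (4.22), Aldh1a7 (0.00) and Lpl (4.40) on the low side, and in Lmx1a (7.11), Cacna2d3 (6.61) and Usp13 (4.71) on the high side. 3xTg cell 29 stood apart with Armcx2, Egfl7 and Slc25a14 at 0.00 and Fam46a at 1.53. 3xTg cell 79 stood apart in Grp (0.00) and Kcnn3 (3.55), and 3xTg cell 77 in Ifi27l1 (4.95).

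WT cell 57, which had the fewest genes detected of the positive cells at 5198, stood apart with Grp, Anxa1 and Cacna1b at 0.00, Gfra1 at 2.33 and Cacng3 at 1.60. WT cell 64 stood apart in Unc79 (3.91), Calb1 (6.95), Penk (6.04) and Adcyap1 (0.00), WT cell 21 in Rnf115 (5.18) and WT cell 60 in Kcnn3 (3.78). Of 50 genes looked at, none had every WT positive cell on one side of its zero median and every 3xTg positive cell on the other.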

How the results depend on the processing

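The count of genes called higher in both genotypes (1264) was 2354 with a pseudocount of 0.1, 201 with 10, 228 by summed CPM, 336 with genes detected as a term, 435 in the shared range and 629 above the median of genes detected, and 2010 and 573 in the first and second run of cell numbers. The count called lower (50) was, in that order, 114, 6, 379, 340, 306, 414, 204 and 362, and it was 32 with a filter at 50% of cells, 374 with at least 50 counts of Slc17a6 and 93 without cells with markers of other types. Chosen after seeing the data, differences relative to the median gene gave 534 and 214, and leaving out each positive cell gave 1007 to 1706 and 44 to 80, the last without WT cell 64. Under the other alternatives both counts stayed within 1.5 times. The difference in median genes detected in WT (1125) was 3614.5 in the first run and -624.5 in the second.

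Among called values, directions turned in the first run, which has 1 WT positive cell, for WT values of Keap1 (-0.82), Atp1b2 (-1.16), Egfl7 (-1.74), Rnf115 (3.31), Usp13 (1.53), Drd2 (-1.24) and Lmx1a (0.83). They turned in the second run for Atp1b2 (-1.77), Bdnf (0.28), Anxa1 (-1.03) and Kcnn3 (-0.73) in 3xTg and for Slc25a14 (-0.69) and Chga (-0.39) in WT. Kcnn3 in 3xTg also turned by summed CPM (-0.08), with genes detected as a term (-0.11) and above the median of genes detected (-0.69). Slc25a14 in WT turned by summed CPM (-0.93), in the shared range (-0.49) and, like Chga (-0.58), with at least 50 counts of Slc17a6 (-0.10). Among cells with 10 counts of Aldh1a1, a setting added after seeing the data, Aldh1a1 (-0.12) and Anxa1 (-1.04) turned in 3xTg. Of 1692 values for single genes under alternatives, 1637 moved by less than the spread of cells, 33 moved by more, of which 17 by summed CPM, and the 22 given here were called and turned. The spread of cells is wide, so a value could lose its call and still count among the 1637. Neurod6 in 3xTg did so in the second run, at 0.32, beside an SD of 3.19 over 3xTg positive cells. Changes of sign in values under the limit of 1 are not listed. By summed CPM the calls of Arf2, Grp, Kcnn3 (0.84 in WT), Chga, Qdpr, Maob, Syn1, Miat and Rian ended in both genotypes, as did those of Nubp2 in WT (-0.59) and of Lmx1a (-0.84), Nr4a2, Got2, Cplx2 and Atp6v0a1 in 3xTg. The causes were not tested beyond what the settings change. Leaving out 1 cell ended 10 of 72 calls of single genes. No paired analysis was possible because the groups share no cell number. With 4 and 7 positive cells, a gene with no count in any of them could still be held by up to 60.24% and 40.96% of such cells, by the exact interval.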
